A study of Mus musculus with 16 samples.

Results

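H3K27Ac peaks were examined at 10 genes that carry fatty acids into cardiomyocytes and through mitochondrial oxidation, namely Cd36, Cpt1b, Cpt2, Acadm, Acadvl, Hadha, Fabp3, Lpl, Acsl1 and Pdk4. A peak counted for a gene when the gene symbol given to it in the peak list was 1 of these 10, and the 4 lists together placed peaks at 10927 genes. Adult cardiomyocytes had been obtained by enzymatic perfusion of the heart from Des+/+ mice, 3 months old, and from Des-/- mice of that age, which lack desmin, the main intermediate filament of heart muscle. The mice were either at rest (basal) or had gone through swimming exercise, and the study's methods use both genotype names for a 129SV background with a GFP transgene driven by the cardiac αMHC promoter. Each of the 4 groups was 1 library of acetylated chromatin obtained from several mice and set against its own input, so no difference between groups could be tested and every interval below covers counting error only.

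The adult heart takes most of its energy from fatty acids. Lipoprotein lipase frees them from circulating triglyceride, CD36 carries them across the membrane, heart-type fatty acid binding protein moves them through the cytosol and long-chain acyl-CoA synthetase activates them. The carnitine palmitoyltransferases bring the acyl groups into mitochondria, where acyl-CoA dehydrogenases and the trifunctional protein shorten them, while PDK4 holds back pyruvate dehydrogenase and so favours fat over glucose. Acetylation of histone H3 at lysine 27 marks active promoters and enhancers.

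The lists held 15757 peaks for Des+/+ basal, 16638 for Des-/- basal, 11157 for Des+/+ swim and 10407 for Des-/- swim. A peak's height is its highest pileup of reads, listed from 15 upward, and its median over each whole list was 23, 23, 20 and 23 in that order. The Des-/- swim library stood apart in its input, whose median height under promoter peaks was 6 against 3 in each of the other lists, and 45.9% of its peaks had an input height of at least 6 against 3.79%, 3.01% and 4.80%. In that list the lowest height listed was 15 at an input of 6, 18 at an input of 8, 20 at an input of 9 and 22 at an input of 10. A place without a peak therefore had a height under 15 or too little excess over an input that the list does not show, and the part of that input in each missing peak was not tested. The lists do not give the total reads per library.

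Cardiomyocyte markers checked the label. A promoter peak, here within 3 kb of an annotated start, was listed for 8 of 8 such markers in 3 lists and for 6 of 8 in Des-/- swim, where Actc1 and Myl2 had none. The highest promoter peaks of these markers summed to heights of 255, 254, 227 and 142. Endothelial markers had promoter peaks at 6, 6, 4 and 4 of 6 genes with sums of 161, 134, 85 and 95, fibroblast markers at 1, 1, 0 and 0 of 6 with 16, 15, 0 and 0, and adipocyte markers at 1, 2, 1 and 1 of 5 with 45, 59, 27 and 32. The adipocyte values were those of Fabp4 alone, a gene that is also in the wider fatty acid list below, except in Des-/- basal, where Plin1 added 16. None of the 5 leukocyte or 4 mural markers had a promoter peak, and neither did Adipoq, the defining adipocyte gene. Cd36 and Lpl are also active in endothelial cells and adipocytes, and a share of such cells and a level per cell cannot be told apart in these bulk libraries.

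The 10 genes had 39 peaks in Des+/+ and 33 in Des-/- at rest, and 35 and 24 after swimming. All 10 genes had a promoter peak in both basal lists, 9 had one in Des+/+ swim, and 5 had one in Des-/- swim, namely Cd36, Lpl, Cpt1b, Acadvl and Pdk4. The 24 peaks of Des-/- swim were 68.6% of the Des+/+ swim number, whereas the whole list of Des-/- swim was 93.3% the size of the Des+/+ swim list. At rest the Des-/- number was 84.6% of the Des+/+ number, against 106% over the whole lists. From rest to swimming the number at these genes went to 89.7% in Des+/+, against 70.8% for all peaks, and to 72.7% in Des-/-, against 62.5%. The length covered at the 10 genes was 47.0, 42.6, 36.9 and 20.3 kb in the 4 lists. Cd36 held 16, 17, 15 and 15 of the peaks, so that without it the numbers were 23, 16, 20 and 9.

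**Figure D1:**
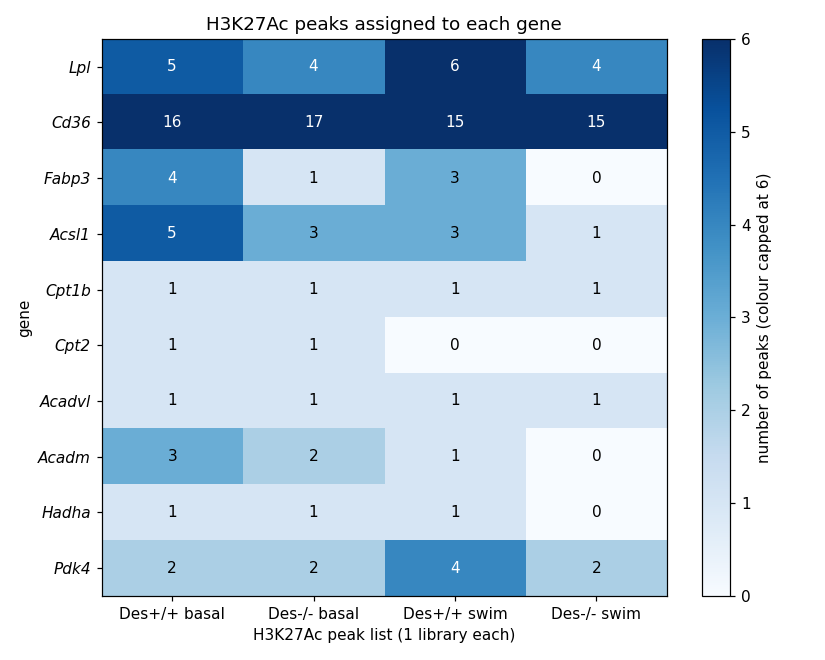
Number of H3K27Ac peaks assigned to each of the 10 genes (rows) in each of the 4 lists (columns, 1 library each), with the colour scale capped at 6. Cd36 held 15 to 17 peaks in every list, while Fabp3, Cpt2, Acadm and Hadha stood at 0 in Des-/- swim.

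Heights at these genes were moderate. Their highest peak was 39 in each basal list and, after swimming, 34 in Des+/+ and 31 in Des-/-. Between 14.4% and 26.3% of all peaks of a list were higher than its own highest peak at the 10 genes. Merged over the 4 lists the peaks made 40 regions, of which 11 were present in 4 lists, 10 in 3, 9 in 2 and 10 in 1. The 10 regions of a single list had heights of 15 to 18, close to the lowest height listed. Of the 10 regions present in 3 lists, 8 were missing in Des-/- swim and 0 in Des+/+ basal, with 1 missing in each remaining list. When the peaks of all genes were merged in the same way, 7 of 9 such regions at the 10 genes were missing in Des-/- swim, against 54.2% of all 2909 regions present in 3 lists.

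Lpl, the lipase that releases fatty acids from lipoproteins, kept a block of acetylation over its start in every library. Its highest promoter peak was 35 (24.4 to 48.7, exact 95% Poisson interval) in Des+/+ and 34 (23.5 to 47.5) in Des-/- at rest, and 34 (23.5 to 47.5) in Des+/+ and 29 (19.4 to 41.6) in Des-/- after swimming, where the input under it was 9 against 4 in the other lists. These values lay within each other's intervals. Beyond the start, Des+/+ swim had weak peaks in the last intron (height 17), the 3' UTR (18) and just past the gene (17), of which Des-/- swim had none. The peak past the gene at chr8:68907828-68909270 (Des-/- basal coordinates, mm10) was present in the other 3 lists at 17 or 18. The last-intron peak was also missing in Des-/- basal, and the 3' UTR peak was missing in both basal lists. Des-/- swim instead had an assigned peak of height 18 that lay 86027 bp from the nearest Lpl start.

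Cd36, the membrane fatty acid transporter, had the greatest length covered by peaks among the 10 genes in all 4 lists. It is also the longest of these genes, at 107 kb. Its peaks formed 16 regions, 8 of them in all 4 lists, and covered 24.0 kb in Des+/+ and 23.3 kb in Des-/- at rest, and 16.6 kb in Des+/+ and 12.8 kb in Des-/- after swimming. The number of peaks changed less than this length, and the swim lists divided some stretches into shorter peaks. The region over the start of transcript ENSMUST00000082367.12 was 1 peak of 2659 bp in Des+/+ basal and 3 peaks of 390, 513 and 1386 bp in Des-/- swim. Its highest value was 36 (25.2 to 49.8), 31 (21.1 to 44.0), 27 (17.8 to 39.3) and 22 (13.8 to 33.3) in the 4 lists, lowest in Des-/- swim with overlapping intervals. The summit of the 36 was at 17835120, and those of the 31, 27 and 22 were at 17836378, 17836460 and 17836389. The Des+/+ basal value is thus from another position in the region. An intronic region within chr5:17842924-17845395 had another order of heights, with 30, 24, 22 and 27, the last being the highest Cd36 peak of Des-/- swim. Summed over all Cd36 peaks, the heights were 287 in Des+/+ swim and 282 in Des-/- swim. Input under all Cd36 peaks of Des-/- swim was 1, unlike the raised input at promoters of that library.

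Another acetylated element lay upstream of Cd36, with listed distances of -34549 to -35613 bp to the nearest start, in an intergenic stretch within chr5:17923350-17925385 (mm10). It was listed in all 4 libraries at heights of 33 (22.7 to 46.3) in Des+/+ and 29 (19.4 to 41.6) in Des-/- at rest, and 20 (12.2 to 30.9) in Des+/+ and 21 (13.0 to 32.1) in Des-/- after swimming. Both swim values were below both basal values, with overlapping intervals. The values did not all come from 1 position. The summits were at 17924664 for the 33 and 17924684 for the 29, but at 17923736 for the 20, the single peak of Des+/+ swim. Nearer to that place the basal lists had a separate peak, of 22 in Des+/+ and 21 in Des-/-. Des-/- swim had a peak of 21 at each of the 2 places. The sequences of the start region and of this element are shown because acetylation was listed at both places in every library. The start is the RefSeq promoter window at chr5:17835897-17836146 on the minus strand (GRCm38, the 250 bases before the start), and the distal element is the plus strand at chr5:17924565-17924764, the 200 bases around the Des+/+ basal summit. Capitals mark AGGTCA, the core motif of nuclear receptors such as the PPARs and estrogen-related receptors, or TGACCT, the same motif on the other strand.
Cd36 start: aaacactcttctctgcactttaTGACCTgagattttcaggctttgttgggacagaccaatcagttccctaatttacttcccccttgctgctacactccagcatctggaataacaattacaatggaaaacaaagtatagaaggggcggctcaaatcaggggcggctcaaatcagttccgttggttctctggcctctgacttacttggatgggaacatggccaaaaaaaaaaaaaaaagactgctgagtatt
Cd36 distal element: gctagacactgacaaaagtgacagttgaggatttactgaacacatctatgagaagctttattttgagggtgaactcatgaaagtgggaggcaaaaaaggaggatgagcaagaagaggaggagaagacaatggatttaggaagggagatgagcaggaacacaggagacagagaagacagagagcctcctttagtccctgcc
The start window held 1 copy of the motif and the distal element 0.

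Fabp3, the cytosolic fatty acid carrier of the heart, had 4 peaks in Des+/+ and 1 in Des-/- at rest, and 3 and 0 after swimming. The single Des-/- basal peak was 4062 bp wide and covered 4.06 kb against 4.97 kb in Des+/+ basal, so that 1 long peak stood where Des+/+ had several. The highest value was 31 (21.1 to 44.0) in Des+/+ and 22 (13.8 to 33.3) in Des-/- at rest, and 27 (17.8 to 39.3) in Des+/+ after swimming. In Des-/- swim the nearest peak of any gene was 51513 bp from the start, at Snrnp40. The promoter window at chr4:130308488-130308737, plus strand, is shown as a start that lost its listed peak in that library.
Fabp3: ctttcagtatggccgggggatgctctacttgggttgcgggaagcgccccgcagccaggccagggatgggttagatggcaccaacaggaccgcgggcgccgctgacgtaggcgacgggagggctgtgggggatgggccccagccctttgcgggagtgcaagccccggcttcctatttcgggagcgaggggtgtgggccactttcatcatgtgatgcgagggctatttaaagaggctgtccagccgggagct
It had 64.8% G and C bases, against a median of 52.4% over all 32851 windows, and no AGGTCA motif.

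Acsl1, which couples long-chain fatty acids to coenzyme A, had start peaks of 25 (16.2 to 36.9) in Des+/+ and 30 (20.2 to 42.8) in Des-/- at rest, and 21 (13.0 to 32.1) in Des+/+ after swimming. In Des-/- swim no promoter peak was listed, and a peak of height 19 in intron 1 was the 1 peak assigned to the gene. That intronic place had 17 in each of the Des+/+ lists and none in Des-/- basal. Input under the start peak was 2, 5 and 7 in the lists that had it. Weak peaks of 15 to 17 upstream, at distances of -55223 bp or farther, were found in 3 lists and not in Des-/- swim.

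Of the carnitine enzymes, Cpt1b makes the acylcarnitine at the outer mitochondrial membrane in muscle. Its start peak was 34 (23.5 to 47.5) in Des+/+ and 35 (24.4 to 48.7) in Des-/- at rest, and 23 (14.6 to 34.5) in Des+/+ after swimming. The peak of 18 (10.7 to 28.4) assigned to Cpt1b in Des-/- swim, chr15:89426128-89426695, did not overlap the start peak of the other lists. It lay where those lists had a peak of 23, 32 and 24 assigned to the neighbouring gene Chkb, so the Cpt1b start itself was without a peak in Des-/- swim. The ratio of Des-/- swim to Des-/- basal for the assigned peaks, 0.514 (0.274 to 0.933, exact conditional interval), thus compares 2 places that do not overlap.

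Cpt2, which returns the acyl group to coenzyme A on the inner membrane, was the 1 gene of the 10 without a peak in both swim lists. At rest its single start peak was 37 (26.1 to 51.0) in Des+/+ and 32 (21.9 to 45.2) in Des-/-. After swimming the nearest peak was 32653 bp away in Des+/+ and 43323 bp away in Des-/-. Of the 129 genes whose highest promoter peak had a height of 37 in Des+/+ basal, Cpt2's own value, 7.75% were without one in Des+/+ swim. The window at chr4:107923590-107923839, minus strand, is given as the start with a peak at rest in both genotypes and with none after swimming in either.
Cpt2: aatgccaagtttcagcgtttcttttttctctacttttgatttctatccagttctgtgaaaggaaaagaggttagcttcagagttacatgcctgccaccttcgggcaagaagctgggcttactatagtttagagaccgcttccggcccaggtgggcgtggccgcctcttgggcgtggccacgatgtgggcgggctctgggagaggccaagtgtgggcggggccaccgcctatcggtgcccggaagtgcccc
It held no AGGTCA motif.

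**Figure D2:**
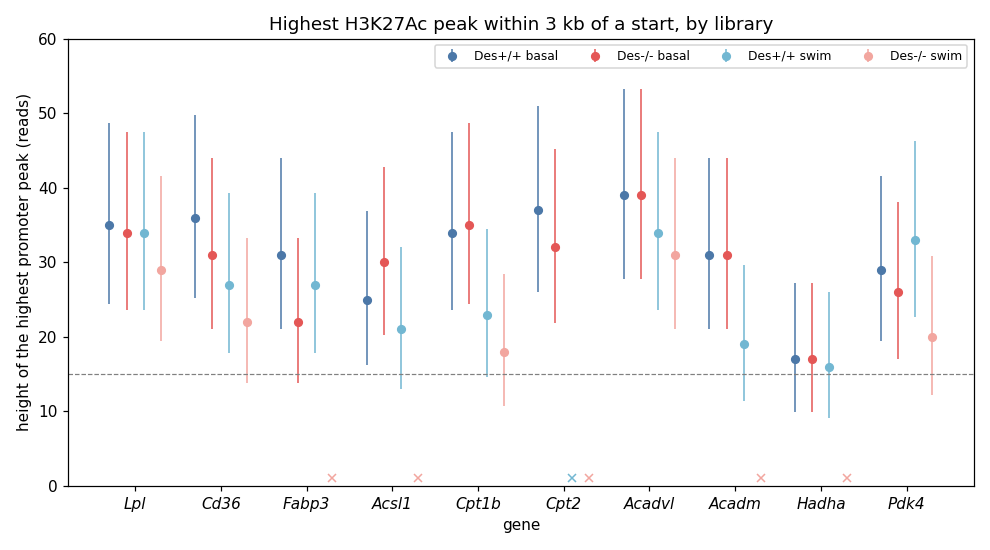
Height in reads of the highest H3K27Ac peak within 3 kb of a start for each gene, ordered by role from uptake to oxidation, with exact 95% Poisson intervals (counting error only). Crosses mark genes with no promoter peak in that library, at no measured height, and the dashed line is the lowest height listed, 15. Des-/- swim is the lowest point of every gene that has all 4 values.

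The dehydrogenases differed among themselves. Acadvl, for very long chains, had 1 peak over its start in every list, with heights of 39 (27.7 to 53.3), 39 (27.7 to 53.3), 34 (23.5 to 47.5) and 31 (21.1 to 44.0) and inputs of 2, 2, 3 and 3. It was the highest of the 10 genes in each list, equal with Lpl in Des+/+ swim. Acadm, for medium chains, had 31 (21.1 to 44.0) in each genotype at rest, 19 (11.4 to 29.7) in Des+/+ swim and no peak in Des-/- swim, where the nearest peak was 30912 bp away. The number of Acadm peaks was 3, 2, 1 and 0. The 2 windows are set side by side as the start with a peak in all 4 libraries, chr11:70015429-70015678, and the start without one in Des-/- swim, chr3:153944644-153944893, both on the minus strand.
Acadvl: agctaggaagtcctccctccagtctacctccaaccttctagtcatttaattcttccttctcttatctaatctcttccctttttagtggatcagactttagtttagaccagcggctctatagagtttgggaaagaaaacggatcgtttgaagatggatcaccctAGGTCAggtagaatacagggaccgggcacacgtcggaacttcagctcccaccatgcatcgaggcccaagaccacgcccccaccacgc
Acadm: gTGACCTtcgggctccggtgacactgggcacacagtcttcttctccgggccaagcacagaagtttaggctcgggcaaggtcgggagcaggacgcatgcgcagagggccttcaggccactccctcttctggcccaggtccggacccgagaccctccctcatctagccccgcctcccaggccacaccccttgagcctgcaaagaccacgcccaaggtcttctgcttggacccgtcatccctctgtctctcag
Each held 1 AGGTCA motif. Among the 9 windows found in RefSeq for 8 of the 10 genes, 3 held it, against 14.0% of all windows, and those 3 belonged to Cd36, Acadvl and Acadm.

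Hadha encodes the alpha subunit of the trifunctional protein and shares its start region, head to head, with Hadhb, the beta subunit. The strong peak over this shared start was assigned to Hadhb and was present in all 4 lists at 67, 93, 59 and 54, higher than any peak assigned to the 10 genes. The peaks with the symbol Hadha were a weak element in intron 1, at 17 (9.90 to 27.2), 17 (9.90 to 27.2) and 16 (9.15 to 26.0), with none in Des-/- swim. The loss of a Hadha peak in Des-/- swim therefore refers to that intronic element and not to the start.

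Pdk4, the kinase that restrains glucose oxidation, had its widest acetylation in Des+/+ swim. Peaks numbered 2, 2, 4 and 2 and covered 1.46, 1.10, 4.04 and 1.19 kb. The start peak was 29 (19.4 to 41.6) in Des+/+ and 26 (17.0 to 38.1) in Des-/- at rest, and 33 (22.7 to 46.3) in Des+/+ and 20 (12.2 to 30.9) in Des-/- after swimming, where its input was 6 against 2 or 3. Pdk4 was the 1 gene of 9 whose start peak was higher in Des+/+ after swimming, at a ratio of 1.14 (0.670 to 1.94), while the Des-/- ratio was 0.769 (0.407 to 1.43). The difference between these responses was not tested. A distal element upstream, at distances of -12476 to -13180 bp, had 16, 16 and 23 in the first 3 lists and no peak in Des-/- swim, and a further one beside it had 15 in Des+/+ swim. A flanking peak just upstream of the start was listed after swimming in both genotypes, at 19 in Des+/+ and 15 in Des-/-. The start window, chr6:5496279-5496528 on the minus strand, is shown as the one where acetylation was listed in all libraries and highest after swimming in Des+/+.
Pdk4: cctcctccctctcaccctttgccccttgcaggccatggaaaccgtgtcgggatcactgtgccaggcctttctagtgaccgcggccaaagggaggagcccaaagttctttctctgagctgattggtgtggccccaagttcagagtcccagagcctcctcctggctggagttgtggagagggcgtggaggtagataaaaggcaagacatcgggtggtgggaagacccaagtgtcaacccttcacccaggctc
It held no AGGTCA motif, and 58.8% of its bases were G or C.

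**Figure D3:**
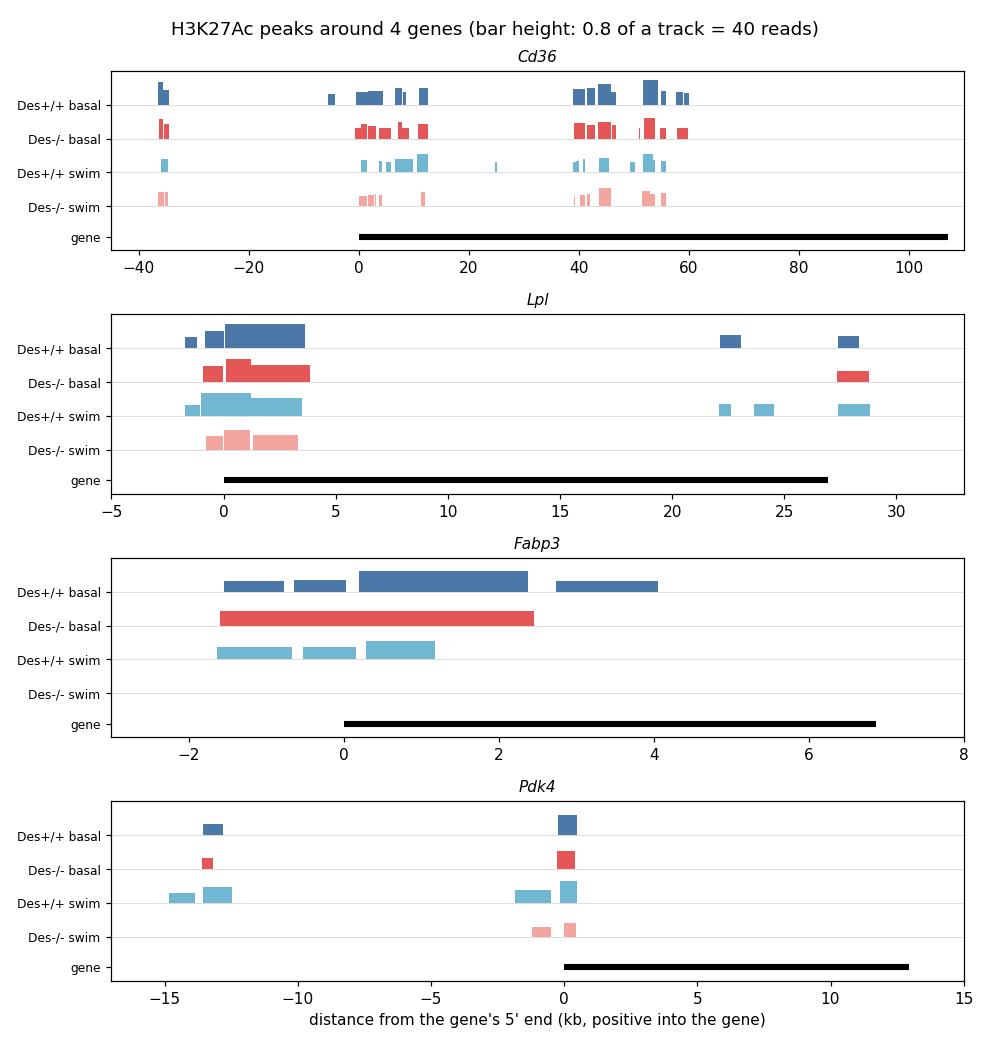
H3K27Ac peaks around Cd36, Lpl, Fabp3 and Pdk4 in the 4 libraries, by distance in kb from the gene's 5' end, positive into the gene (black bar). Each block spans a listed peak and its height is the peak height in reads. The distal Cd36 element appears in all 4 tracks, Fabp3 has no block in Des-/- swim, and Pdk4 has 4 blocks in Des+/+ swim. The Lpl peak 86027 bp from a start in Des-/- swim lies outside the range drawn.

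At rest the interval of the ratio between genotypes included 1 for each of the 10 genes. Over the 10 genes the median ratio of Des-/- to Des+/+ was 0.986, with a range of 0.710 for Fabp3 to 1.20 for Acsl1, against a median of 1.08 over 8061 genes. The summed heights were 314 in Des+/+ and 297 in Des-/-, a ratio of 0.946 (0.804 to 1.11). None of the 10 was lower by 1.5-fold or more, which was so for 1.43% of all genes, and none lost its promoter peak, which 6.78% of all genes did. Of 37 regions at the 10 genes, 7 had a peak in Des+/+ alone and 1 in Des-/- alone, which is 18.9% and 2.70% against 12.9% and 18.4% over all regions. The 7 peaks were weak, with heights of 16 to 19, and none reached 20.

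After swimming the 2 genotypes differed more at these genes. Of 40 regions, 19 had a peak in Des+/+ alone (47.5%, against 23.5% of all regions) and 4 in Des-/- alone (10%, against 18.0%). The 19 peaks had heights of 15 to 27, and 5 reached 20. Of the 9 genes with a promoter peak in Des+/+ swim, Acadm, Hadha (its intronic element), Fabp3 and Acsl1 had none in Des-/- swim, 4 of 9 where 16.8% of all genes lost theirs. Between heights of 16 and 27 in Des+/+ swim, a range set from these 4 genes themselves, 4 of 6 of the genes described here and 22.7% of all genes had none in Des-/- swim. Their inputs in Des+/+ swim were 3, 1, 2 and 7. The 5 genes with a value in both lists had ratios of 0.606 for Pdk4 to 0.912 for Acadvl with a median of 0.815, whereas the median over 5410 genes was 1.13. All 5 were below 1 and each interval included 1, and the Cpt1b value compares neighbouring places. Pdk4 was the 1 of the 5 that was lower by 1.5-fold or more, as 1.42% of all genes were. The highest peaks of the 5 summed to 151 in Des+/+ and 120 in Des-/-, a ratio of 0.795 (0.620 to 1.02). With all promoter peaks of these 5 genes summed the ratio was 0.985, so that it depends on this choice. The cardiomyocyte markers moved the same way, with sums of 227 over 8 genes in Des+/+ and 142 over 6 in Des-/-. Counted like these markers, over every gene with a promoter peak, the 10 genes gave 234 over 9 and 120 over 5. The part of the markers in these values, like that of the higher input, was not tested.

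**Figure D4:**
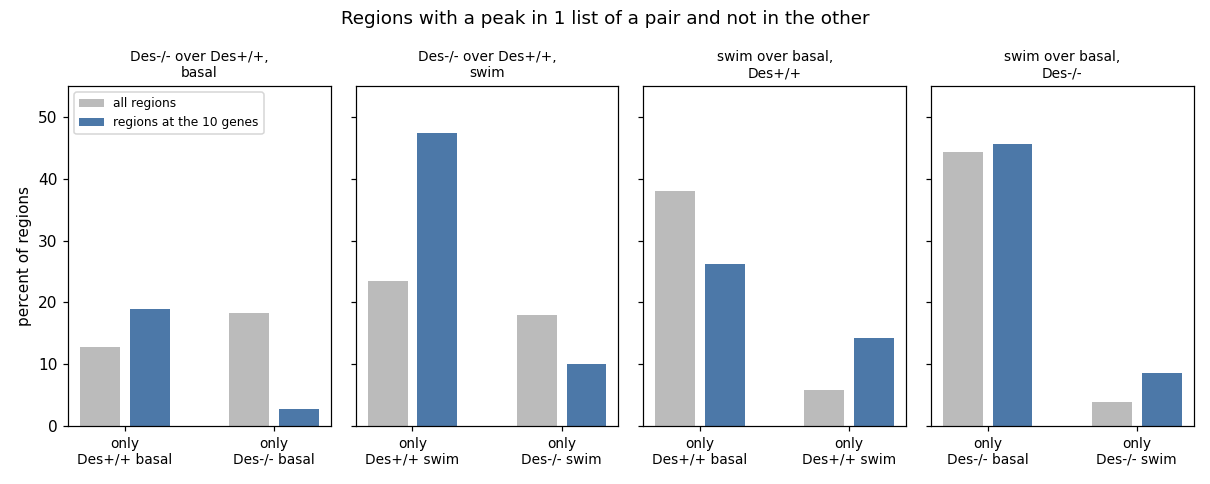
Percent of regions with a peak in 1 list of a pair and not in the other, for all regions (grey) and for regions at the 10 genes (blue), in each of the 4 pairs of libraries. After swimming 47.5% of the regions at the 10 genes were listed in Des+/+ alone, against 23.5% of all regions.

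In Des+/+ 9 of the 10 genes still had a promoter peak after swimming. Cpt2 alone lost its peak, 1 of 10 where 28.0% of all genes did. The ratio of swim to basal had a median of 0.871 over the 9 genes, from 0.613 for Acadm to 1.14 for Pdk4, against 0.709 over 6227 genes. Acadm was the 1 gene that was lower by 1.5-fold or more, as 40.1% of all genes were. The sum was 277 at rest and 234 after swimming, a ratio of 0.845 (0.707 to 1.01). Divided by the median ratio of all genes it was 1.19, so that the direction depends on whether the libraries' general difference in height is removed. Of 42 regions, 11 were in the basal list alone (26.2%, against 38.0% of all) and 6 in the swim list alone (14.3%, against 5.79%). With the same number of highest peaks taken from each list these were 3 and 13, the opposite order. The share over all regions was not computed at that setting, so this order cannot be read as particular to the 10 genes.

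In Des-/- 5 of the 10 genes had a promoter peak after swimming. Cpt2, Acadm, Hadha (its intronic element), Fabp3 and Acsl1 had lost theirs, 5 of 10 where 32.0% of all genes did. The Hadha start itself kept a peak of 54, assigned to Hadhb, and the Cpt1b peak counted as kept lay beside its start. Between basal heights of 17, that of the Hadha element, and 32, a range again set from the genes that lost their peak, 5 of 7 lost it against 48.6% of all genes. The 5 genes with both values had a median ratio of 0.769, near the 0.733 over 6183 genes, and a summed ratio of 0.727 (0.570 to 0.926) from 165 to 120. Without Cpt1b, whose peaks do not overlap, the summed ratio was 0.785 (0.599 to 1.02), and with all 5 genes it was 0.992 after division by the median ratio of all genes and 0.965 when all promoter peaks were summed, so that it depends on these choices. Cpt1b was the 1 of 5 that was lower by 1.5-fold or more, which held for 34.2% of all genes. Of 35 regions, 16 were in the basal list alone (45.7%, against 44.3% of all) and 3 in the swim list alone (8.57%, against 3.89%). The share of regions lost was thus near that of the whole list.

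A wider list of 47 genes of fatty acid uptake, carnitine transport, beta-oxidation, lipid droplets and the other PDKs gave promoter peaks at 36 genes in Des+/+ and 35 in Des-/- at rest, and 32 in Des+/+ and 30 in Des-/- after swimming. Of these genes 26 had one in all 4 lists and 8 in none. The heights of their highest promoter peaks summed to 1098, 1151, 796 and 810. By height summed over the 4 lists, the highest of those 26 were Hadhb, Acadl, the long-chain acyl-CoA dehydrogenase, at 54, 53, 45 and 34, and Etfa, a subunit of the flavoprotein that takes electrons from these dehydrogenases, at 48, 48, 46 and 44.

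After swimming, 5 genes of the wider list had a promoter peak in Des+/+ and none in Des-/-, which is 15.6% of the 32 and near the 16.8% of all genes. These were the fatty acid transport protein gene Slc27a1 (17), the lipase maturation factor Lmf1 (16), Mlycd, whose product removes the CPT1 inhibitor malonyl-CoA (31), Decr1, for unsaturated fatty acids (15), and the uncoupling protein Ucp3 (16). In the other direction, Acsl4 (16), Echs1 (18) and Pdk1 (21) had one in Des-/- alone. That is 10% of the 30 genes with one in Des-/- swim, against 16.2% of all genes. The median ratio of Des-/- to Des+/+ over the 27 genes with both values was 1.14 after swimming, where the 5 genes described above had 0.815, and 1.07 over 32 genes at rest. From rest to swimming it was 0.795 over 30 genes in Des+/+ and 0.750 over 28 genes in Des-/-. The difference between the 10 genes and the wider list was not tested.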

How the data were processed

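Chromatin from isolated cardiomyocytes was immunoprecipitated for H3K27Ac (Abcam ab4729) or lamin A/C in 4 groups. Per the labels and the study's methods, the authors aligned reads to mm10 with Bowtie2 2.4.4, used SAMtools 1.13, called peaks per library against input with an in-house script and annotated them with ChIPseeker 1.36.0. The deposited values are signal heights of immunoprecipitate and input at each peak, not read counts over it; duplicate removal, read extension and scaling to depth are not given in the sources used here. The script's threshold on height was 15 for H3K27Ac and 8 for lamin A/C, as the lowest heights show. Heights were read as counts for exact 95% Poisson intervals and, for ratios, exact conditional binomial intervals, which cover counting error only and hold only if heights were not rescaled. Regions were overlapping peaks (at least 1 bp) of the lists compared. A promoter peak lay within 3 kb of the annotated start by the deposited distance, whereas the authors' label Promoter reached 1 kb. A gene's height is that of its highest promoter peak. With 1 library per group no test was run. Region matching was tested on simulated data. Sequences came from RefSeq (GRCm38.p6), matched by symbol. Python 3.11.15, pandas 2.3.3, NumPy 2.4.6, SciPy 1.17.1 and Matplotlib 3.10.9 were used. The 10 genes and the lists were chosen with earlier results of these data known. All 10 genes were named, and of the wider list the 3 genes with the highest summed height among those with a promoter peak in every list, and those in 1 swim list and not the other.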

Additional observations from a re-analysis of the deposited data

Results flagged for a closer look

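For 2 of the 10 genes the highest promoter peak moved in opposite directions in 2 groups under the same contrast, each group being 1 library, and the difference was not tested. For Pdk4 the ratio of swim to basal was 1.14 in Des+/+ and 0.769 in Des-/-. For Cpt1b the ratio of Des-/- to Des+/+ was 1.03 at rest and 0.783 after swimming, where the Des-/- swim peak lay beside and not over the start. All 4 intervals included 1.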

How the results depend on the processing

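With 1 library per group no replicate could be left out, and no paired analysis was possible because each group had 1 library. Counting error alone limits a height of 15 to an interval of 8.40 to 24.7, and read totals were not used since the lists do not give them. The 114 recomputed single-gene ratios all stayed within their own intervals. This shows little, since the intervals are wide, as from 0.330 to 1.09 for Pdk4 between genotypes after swimming. The 27 ratios from promoter peaks within 1 kb were also the same as those reported. A minimum height of 20 left 19, 21, 14 and 10 peaks at the 10 genes (Des+/+ basal, Des-/- basal, Des+/+ swim, Des-/- swim), and one of 30 left 9, 7, 3 and 1. Equal numbers of highest peaks gave 22, 21, 33 and 24. Promoter peaks alone gave 23, 21, 21 and 17. Without Cd36, chosen after seeing the data, they were 23, 16, 20 and 9. For regions in 1 list of a pair alone, in the order Des+/+ then Des-/-, the basal pair (7 and 1) gave 4 and 0 when gaps of up to 1000 bp were joined, 0 and 0 for peaks of 20 or more, 7 and 2 when an overlap had to span 50% of either peak, 5 and 3 with equal numbers, 3 and 1 for promoter peaks and 6 and 0 without Cd36. The swim pair (19 and 4) gave 15 and 1 with joined gaps, 5 and 0 for peaks of 20 or more, 17 and 4 with equal numbers, 10 and 3 for promoter peaks and 14 and 1 without Cd36. Des+/+ kept the larger number each time. It was also the larger over all regions as reported, with 3015 against 2313. Shares over all regions were not computed for these other settings, in this pair or in the rest. In Des+/+, basal then swim (11 and 6), the values were 7 and 2, 2 and 0, 3 and 13, 7 and 2, and 6 and 3 for the same settings. In Des-/- (16 and 3) they were 13 and 2, 8 and 0, 8 and 7, 9 and 1, and 11 and 3. Summed height ratios of swim to basal became 1.19 in Des+/+ and 0.992 in Des-/- after division by the median ratio of all genes, and 0.965 in Des-/- when all promoter peaks were summed. Without Cpt1b, also left out after seeing the data, the 4 summed ratios were 0.936 and 0.797 between genotypes (basal, swim) and 0.868 and 0.785 between swim and basal (Des+/+, Des-/-). The same sum of all promoter peaks brought the swim ratio of Des-/- to Des+/+ from 0.795 to 0.985. The cause of these moves was not tested.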

Other observations

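Lamin A/C, the nuclear intermediate filament protein, was profiled in the same groups. Its lists were short, with 188 peaks for Des+/+ and 831 for Des-/- at rest, and 635 and 536 after swimming. Peaks at the 10 genes were found in Des+/+ swim, where 2 lay in the 3' UTR of Lpl at heights of 12 and 11 and 1 in the 3' UTR of Cd36 at a height of 9, each over an input of 1. The other lists had 0, which allows shares of up to 1.60%, 0.361% and 0.560% of their peaks for Des+/+ at rest, Des-/- at rest and Des-/- after swimming (counting error only). Lipid droplet genes of the wider list had promoter peaks at 9 of 10 genes in each of the 4 H3K27Ac lists, with summed heights of 282, 292, 212 and 251, and Plin5 was without one throughout. Among them the triglyceride lipase Pnpla2 had 41, 38, 33 and 38, and the lipase activator Abhd5 had 43, 42, 20 and 30. Elsewhere in the wider list, genes with a promoter peak numbered 7, 8, 6 and 5 of 12 for uptake and 5, 5, 4 and 3 of 6 for carnitine transport. For beta-oxidation they numbered 13, 11, 12 and 11 of 16, and for the PDKs 2, 2, 1 and 2 of 3. Of all genes with a promoter peak at rest, 28.0% in Des+/+ and 32.0% in Des-/- had none after swimming. The difference between these groups of genes was not tested.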
